A study of Homo sapiens with 16 samples.

Results

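The pericentromeric heterochromatin blocks of chromosomes 1, 2, 9, 10 and 16 were examined in 9 peak lists of G-quadruplex (G4) DNA captured from HEK293T, a human embryonic kidney cell line. The members were chosen by their measured peak positions. They are the peaks with a midpoint in chr1:125.1-144.0, chr2:88.5-91.8, chr9:45.5-68.0, chr10:41.6-43.0, chr16:33.5-35.3 or chr16:38.4-46.6 (hg38, in Mb), and the latter pair of intervals is called here the first and the second chr16 block. This gave 728 of the 40118 listed peaks. Their positions, numbers and fold enrichments, set against the rest of the genome, are therefore descriptions with no test, and the tests given are those of KD against CT within the blocks, a contrast the choice did not name.

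All captures used the 1H6 antibody against G4 DNA. G4 DNA-IPnat and G4 DNA-IPdenat started from purified genomic DNA of cells without any shRNA, taken as it was or after heat denaturation and snap-chilling, and G4-ChIP started from crosslinked and sonicated chromatin of HEK293T. In the AbC G4-ChIP samples the antibody was bound to permeabilised fixed cells and crosslinked there before sonication. CT cells carried a stably integrated lentiviral non-targeting shRNA and KD cells an shRNA against CGGBP1, a protein that binds CGG repeats, and both were made from HEK293T. The CTnuc and KDnuc samples received no Control DNA, the CTut and KDut lysates received pre-folded, antibody-crosslinked Control DNA, and the CTtr and KDtr cells were transfected with the Control DNA 12 h before fixation. CTnuc and KDnuc are Ion Torrent S5 libraries and the other 7 lists come from a MinION, so that the platform and the nuc preparation cannot be told apart. Replicates were pooled by the authors before sequencing, so each list stands for 1 library and has no spread between replicates. Of the 16 samples, 7 were inputs with no peak list. CTnuc and KDnuc share an input, and so do G4 DNA-IPnat and G4 DNA-IPdenat. CTut, KDut, CTtr, KDtr and G4-ChIP each have their own. The lists hold no expression values, so the knockdown itself could not be checked here. The depth of the libraries is unknown from the lists. The study's supplementary tables report more reads for CTnuc and KDnuc than for the DNA-IP and G4-ChIP libraries. These read numbers were not used here.

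The blocks beside these centromeres consist largely of satellite DNA. Classical satellites II and III are tandem arrays built from the pentamer GGAAT, which reads ATTCC on the other strand, either close to exact or strongly diverged, and alpha satellite is the repeat of the centromeres themselves, with a longer unit. A classical G4 forms where 4 runs of at least 3 guanines lie close together on a strand. The pentamer carries guanine pairs but no guanine triplet.

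The reference holds little of these blocks. Of 56.1 Mb, 78.2% were unknown bases, and the largest gaps lay at chr1:125184588-143184587, chr9:45518559-60518558 and chr16:38400001-46380682. The known sequence came to 12219.8 kb, of which 690.9 kb lay in 1 kb tiles where GGAAT and ATTCC took more than 10% of the bases. Such pentamer-rich tiles made up 253.8 kb of the first chr16 block, 147 kb of the chr10 block, 130.8 kb of the chr1 block, 113 kb of the chr2 block and 46.3 kb of the second chr16 block. The chr9 block held 0 kb, although a further 42.9 kb stood elsewhere on chromosome 9. Pentamer-rich sequence was thus held by 5 of the 6 intervals in this assembly. It made up from 5.56% of the known bases in the chr2 block to 21.1% in the second chr16 block. The name of classical satellite thus described a part of these 5 intervals. The chr9 interval held peaks but no pentamer array, and the members are called block peaks throughout.

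The following stretches show what the peaks lay on. Each is the 200 bases (hg38, plus strand) at the centre of the stretch under the most lists within the most shared region of its block, and the sixth is the centre of the most shared stretch of a denser array on chromosome 10, which was chosen after its values had been seen. Capitals mark GGAAT and ATTCC.
chr1:143237631-143237830: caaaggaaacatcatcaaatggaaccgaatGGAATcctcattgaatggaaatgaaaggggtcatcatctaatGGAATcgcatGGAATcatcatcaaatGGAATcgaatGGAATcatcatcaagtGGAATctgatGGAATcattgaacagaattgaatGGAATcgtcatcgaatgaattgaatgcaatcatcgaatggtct
chr2:90393725-90393924: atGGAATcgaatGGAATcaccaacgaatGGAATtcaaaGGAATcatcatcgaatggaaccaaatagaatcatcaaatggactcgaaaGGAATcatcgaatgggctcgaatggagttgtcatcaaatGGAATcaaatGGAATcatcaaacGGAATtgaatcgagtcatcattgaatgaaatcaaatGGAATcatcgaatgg
chr10:42077387-42077586: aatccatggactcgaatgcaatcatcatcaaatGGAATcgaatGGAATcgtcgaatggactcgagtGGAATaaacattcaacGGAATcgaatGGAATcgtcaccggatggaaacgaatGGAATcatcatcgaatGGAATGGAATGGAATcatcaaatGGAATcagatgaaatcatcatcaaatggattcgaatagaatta
chr16:34594461-34594660: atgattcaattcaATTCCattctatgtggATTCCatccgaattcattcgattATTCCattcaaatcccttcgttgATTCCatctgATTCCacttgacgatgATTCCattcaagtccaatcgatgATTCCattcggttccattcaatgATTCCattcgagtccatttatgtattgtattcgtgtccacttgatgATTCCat
chr16:46383987-46384186: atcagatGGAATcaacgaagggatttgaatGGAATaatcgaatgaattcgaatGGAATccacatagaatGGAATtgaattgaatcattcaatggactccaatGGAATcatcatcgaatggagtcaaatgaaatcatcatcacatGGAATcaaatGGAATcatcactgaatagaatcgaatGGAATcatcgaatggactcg
chr10:41859380-41859579: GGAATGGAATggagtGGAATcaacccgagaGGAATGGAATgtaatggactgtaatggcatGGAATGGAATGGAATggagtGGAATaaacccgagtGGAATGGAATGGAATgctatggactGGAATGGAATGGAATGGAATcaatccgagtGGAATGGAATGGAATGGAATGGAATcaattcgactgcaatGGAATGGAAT
chr9:63822257-63822456: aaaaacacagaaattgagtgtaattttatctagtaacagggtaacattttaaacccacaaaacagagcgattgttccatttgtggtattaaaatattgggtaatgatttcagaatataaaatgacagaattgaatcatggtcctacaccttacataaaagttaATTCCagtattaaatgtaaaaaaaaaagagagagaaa

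The first 5 stretches carried between 8 and 10 copies of the pentamer in 200 bases, or 20% to 25% of the bases, and the copies between them were diverged. The stretch of the first chr16 block showed the other orientation, with 9 ATTCC and 0 GGAAT. The dense chr10 stretch carried 23 copies in 200 bases, with a longest perfect run of 5, and 57.5% of its bases were pentamer. All 6 stretches held at most 2 GGG and at most 2 CCC. The chr9 stretch held 1 ATTCC in 200 bases, a share of 2.5%, in ordinary AT-rich sequence with 28% G and C.

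Block peaks were first sorted by sequence. A peak was called pentamer-rich where GGAAT and ATTCC took more than 10% of its bases, alpha-periodic where it was not pentamer-rich and more than 50% of its bases recurred at the unit length of alpha satellite, and other in the remaining cases. Of the 728 block peaks, 329 were pentamer-rich (45.2%, exact 95% interval of 41.5% to 48.9%, which covers counting error only), against 2.25% of all listed peaks. A further 65 were alpha-periodic (8.93%, against 12.5% of all listed peaks) and 334 were other (45.9%, against 85.2%). Pentamer-rich peaks prevailed on chr1 (112 of 134), chr10 (105 of 135), the first chr16 block (48 of 74) and the second chr16 block (26 of 30). On chr2 they were 38 of 107. The chr9 block, with 248 peaks the best represented of the 6, had 0 pentamer-rich peaks, 60 alpha-periodic and 188 other ones.

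**Figure D1:**
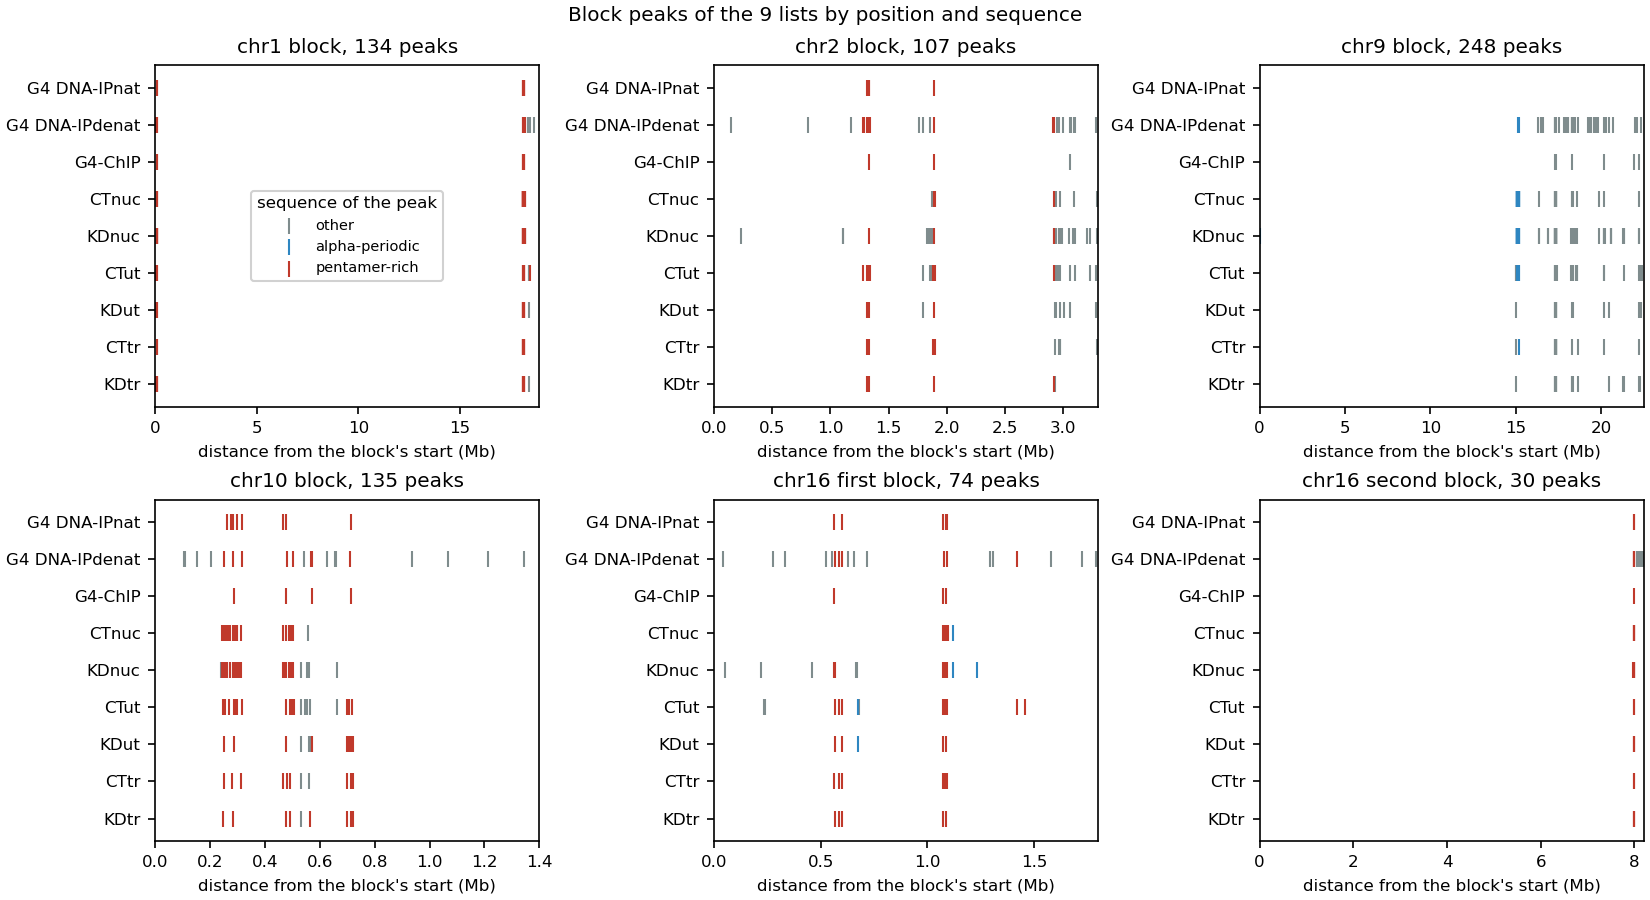
Position of every block peak in each of the 9 lists, as the distance from the start of its block in Mb (horizontal axes, 1 panel per block), with 1 mark per peak coloured by sequence. Pentamer-rich marks (red) crowd at the few known stretches of the chr1, chr2, chr10 and chr16 blocks, the unknown bases leave wide empty spans, and the chr9 panel has 0 pentamer-rich marks among its 248.

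The lists differed in how much of their peaks fell in the blocks and on what. G4 DNA-IPnat placed 28 of its 226 peaks there (12.4%, exact 95% interval of 8.39% to 17.4%), which held 20.3% of its peak bases, and all 28 were pentamer-rich. G4 DNA-IPdenat, the longest list, placed 125 of 15709 there (0.796%), of which 33 were pentamer-rich and 90 were other. G4-ChIP placed 25 of 1455 there (1.72%), of which 18 were pentamer-rich. By number of peaks, native DNA and chromatin thus gave short lists in the blocks, mostly on pentamer arrays, and denatured DNA a longer one mostly off them. By bases this turned for denatured DNA, with 263.7 kb of its 459.6 kb in the blocks on pentamer-rich tiles. Pentamer-rich peaks made up 0.777% of the whole denatured list, 3.78% of the whole G4-ChIP list and 35.8% of the whole native one.

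The AbC lists lay in between. CTnuc had 113 block peaks of 3796 (2.98%), 56 of them pentamer-rich, and KDnuc had 2.21% of its 7753 peaks there, namely 58 pentamer-rich, 27 alpha-periodic and 86 other ones. CTut had 102 of 3496 (2.92%) with 42 pentamer-rich, and KDut 57 of 2927 (1.95%) with 30. CTtr had 55 of 2367 (2.32%) and KDtr 52 of 2389 (2.18%), with 32 pentamer-rich peaks each. The numbers of pentamer-rich peaks thus stayed between 18 and 58 over all 9 lists, whereas those of other peaks ran from 0 to 90.

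**Figure D2:**
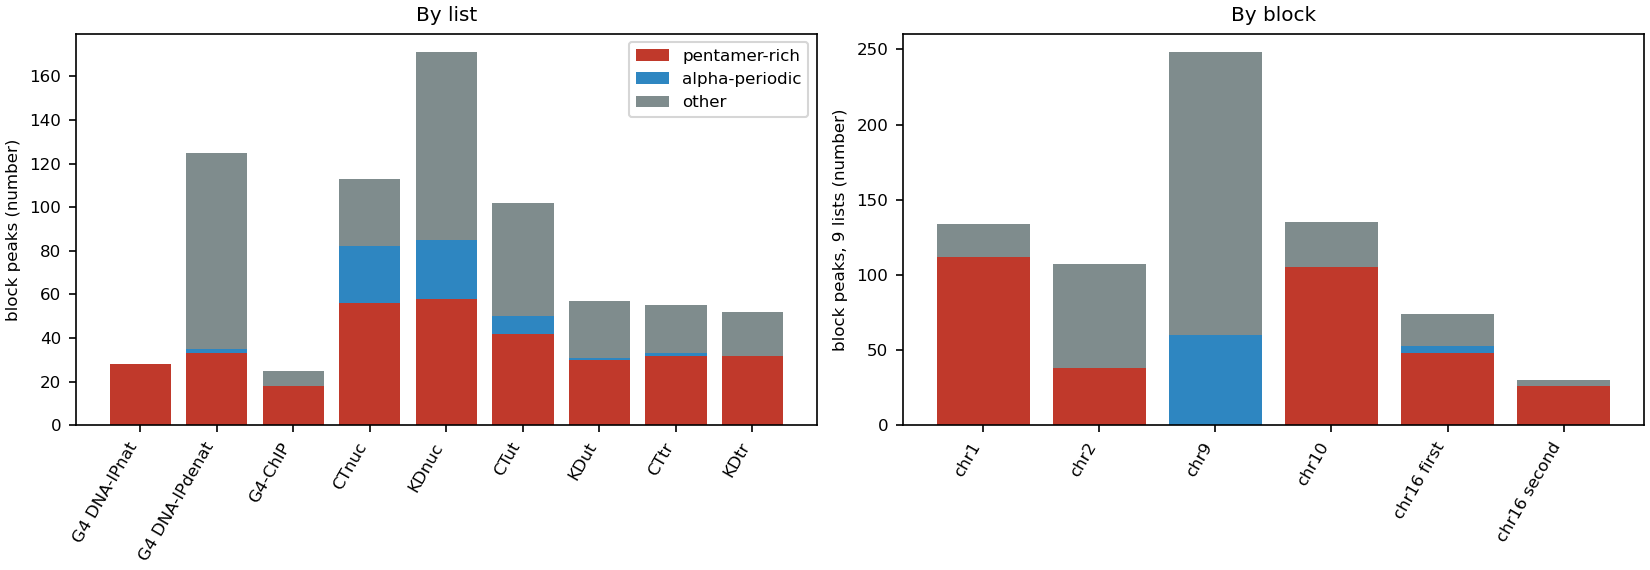
Number of block peaks (vertical axes) by list on the left and by block, summed over the 9 lists, on the right, stacked by sequence class. G4 DNA-IPnat has 28 pentamer-rich peaks and 0 others, G4 DNA-IPdenat has 90 other peaks of 125, and the alpha-periodic peaks stand mainly in CTnuc (26) and KDnuc (27).

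In CTnuc and KDnuc the deposited peak numbers skip, which they do in none of the other 7 lists. Over the whole list 64.7% of the numbers had no peak in CTnuc and 65.2% in KDnuc. Between the first and the last peak of each block 81 of 194 numbers (41.8%) were skipped in CTnuc and 157 of 328 (47.9%) in KDnuc. The skipped numbers were not analysed here, so every value for these lists is that of the peaks listed, and the part of the skipped numbers in the results below was not tested.

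Some block peaks on pentamer arrays were among the tallest of their lists. Of the 10 highest folds of a list they made up 5 in G4-ChIP and in CTnuc, 1 in CTut and 0 in G4 DNA-IPdenat. Over all lists, the median fold enrichment over input of all pentamer-rich block peaks was 9.06. It was 4.49 for other block peaks and 5.93 for the 574 pentamer-rich peaks outside the blocks. The alpha-periodic block peaks, which came mostly from CTnuc (26) and KDnuc (27), had a median of 9.87 in CTnuc, 9.76 in KDnuc and 4.16 in CTut. By list, the pentamer-rich median was 9.99 in G4-ChIP, 10.0 in G4 DNA-IPdenat and 6.49 in G4 DNA-IPnat. It was 13.2 in CTnuc, 13.5 in KDnuc, 7.81 in CTut, 9.46 in KDut, 8.05 in CTtr and 9.86 in KDtr. Each of these 9 medians was above that of the same list's pentamer-rich peaks outside the blocks, which ran from 5.45 in G4-ChIP to 7.11 in G4 DNA-IPdenat. The kinds of array were not matched in this. Peaks with more than 30% pentamer, called dense below, were 85 of the 329 inside and 470 of the 574 outside. On these alone the median over all lists was 6.35 inside and 6.16 outside. It was lower inside in CTnuc (5.54 against 6.02), KDnuc (5.44 against 5.90) and KDut (6.02 against 6.21), and higher in the other lists. On pentamer-rich peaks with at most 30% pentamer the median over all lists was 10.6 for 244 peaks inside and 4.98 for 104 outside. It was higher inside in each list, although the outside peaks of a list were few, with 1 in KDnuc.

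A block peak had the highest fold of the whole list in each of the 6 AbC lists. In CTnuc it was chr16:34581147-34582564 with a fold of 44.6, and in KDnuc chr16:34581139-34582556, nearly the same interval, with 51.0. In CTut it was chr16:46399855-46402170 with 26.8 and in KDut chr16:46400290-46402146 with 21.6. In CTtr it was chr1:125166865-125168252 with 18.4 and in KDtr chr1:125166834-125168266 with 20.1. Both lists of each preparation thus had their tallest peak at the same place, and the place differed between the preparations. The folds of CTnuc and KDnuc are over the same input.

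In the remaining lists the tallest block peak ranked 2 or 3. It was chr1:125166816-125168162 in G4 DNA-IPnat (fold 10.8, rank 2), the interval at which CTtr and KDtr also peaked, and chr1:125175313-125184584 in G4-ChIP (fold 15.7, rank 3). In G4 DNA-IPdenat it was chr9:64123246-64126317 (fold 21.9, rank 2), which lay between genes and was not pentamer-rich. Other tall G4 DNA-IPdenat peaks off the arrays were poor in G and C, such as chr9:63395738-63401869 with 28.3% G and C and a fold of 12.4. That example was chosen after its values had been seen.

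Peaks of different lists coincided in the blocks. Of the 728 block peaks, 586 (80.5%, exact 95% interval of 77.4% to 83.3%) overlapped a peak of another list by at least 1 bp, against 50.5% of all listed peaks. All 28 block peaks of G4 DNA-IPnat overlapped peaks of CTut, of KDut, of CTtr and of KDtr, which 99.1% (ut) and 99.6% (tr) of the whole G4 DNA-IPnat list also did. A G4-ChIP peak was overlapped by 92.9% of the 28, against 73.9% over the whole list. Of the G4-ChIP block peaks 64.0% overlapped a G4 DNA-IPnat peak, against 10.8% over its whole list. Measured by shared bases, the Jaccard index (bases shared over bases in either) of G4 DNA-IPnat and G4-ChIP was 0.559 in the blocks and 0.0742 outside. That of CTnuc and KDnuc was 0.625 in the blocks and 0.302 outside, and that of KDut and KDtr was 0.731 and 0.432.

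Merged across lists, the block peaks formed 228 regions, of which 142 held peaks of 1 list. In the whole series 84.4% of 23547 merged regions did so. Peaks of at least 7 lists met in 20 of the 228 block regions, against 2.30% of regions in the whole series, and peaks of all 9 met in 9. All 9 of the latter were pentamer-rich, as were 12 of the 20. Of the 25 pentamer-rich regions 15 lay within 50 kb of an assembly gap. So did 12 of the 25 alpha-periodic, 41 of the 178 other and 68 of all 228 block regions. In bases, 56.3 kb lay under peaks of all 9 lists and 361.2 kb under 1 list, of 904.6 kb under any.

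The 9 regions shared by all lists are described by block. On chr1, the array that follows the large gap gave the longest region of all, chr1:143184468-143276385, whose sequence repeated most strongly at a distance of 26 bases. Its highest fold enrichment was 8.90 in G4 DNA-IPnat, 15.1 in G4-ChIP, 16.0 in G4 DNA-IPdenat, 24.8 in CTnuc, 25.3 in KDnuc, 11.5 in CTut, 12.8 in KDut, 10.7 in CTtr and 13.9 in KDtr. The Ion Torrent lists stood above the 7 MinION lists. The region on the other side of the gap, chr1:125173644-125184613, was alike, with folds of 6.54 in G4 DNA-IPnat, 15.7 in G4-ChIP, 11.7 in G4 DNA-IPdenat, 25.6 in CTnuc, 29.3 in KDnuc, 12.8 in CTut, 13.7 in KDut, 10.7 in CTtr and 14.6 in KDtr.

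The remaining region on chr1 had another order of lists. At chr1:125160121-125170604, where the sequence repeated most strongly at 49 bases, the fold was 10.8 in G4 DNA-IPnat, 14.8 in G4-ChIP, 10.5 in G4 DNA-IPdenat, 12.9 in CTnuc, 14.4 in KDnuc, 4.57 in CTut, 19.2 in KDut, 18.4 in CTtr and 20.1 in KDtr. CTut was the lowest of all lists here, and it covered the most, with all 10484 bases of the region under its peak against 1813 in KDut.

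On chr2 and chr10 the shared regions again bordered gaps. At chr2:90380043-90402510 the fold was 7.10 in G4 DNA-IPnat, 8.66 in G4-ChIP, 12.6 in G4 DNA-IPdenat, 16.8 in CTnuc, 18.4 in KDnuc, 11.8 in CTut, 12.9 in KDut, 8.88 in CTtr and 11.2 in KDtr. At chr10:42066257-42094968 it was 5.86 in G4 DNA-IPnat, 6.51 in G4-ChIP, 12.1 in G4 DNA-IPdenat, 13.4 in CTnuc, 15.6 in KDnuc, 10.7 in CTut, 10.3 in KDut, 9.20 in CTtr and 10.2 in KDtr. Over the region of the dense array, chr10:41843312-41916246, it was 7.56 in G4 DNA-IPnat, 7.20 in G4-ChIP, 11.9 in G4 DNA-IPdenat, 19.3 in CTnuc, 19.9 in KDnuc, 11.0 in CTut, 12.2 in KDut, 8.57 in CTtr and 12.0 in KDtr. The CTnuc and KDnuc values there came from peaks with at most 30% pentamer. Over all blocks, peaks with more pentamer than that reached at most 11.1 in CTnuc and 9.96 in KDnuc. G4 DNA-IPnat and G4-ChIP were the lowest 2 lists at each of these 3 regions.

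Chromosome 16 held the tallest block peak of CTnuc, KDnuc, CTut and KDut. At chr16:34580825-34596479 the fold was 8.03 in G4 DNA-IPnat, 13.3 in G4-ChIP, 12.4 in G4 DNA-IPdenat, 44.6 in CTnuc, 51.0 in KDnuc, 11.0 in CTut, 12.5 in KDut, 9.67 in CTtr and 13.4 in KDtr. At its neighbour chr16:34571509-34577165 it was 6.59 in G4 DNA-IPnat, 6.03 in G4-ChIP, 13.3 in G4 DNA-IPdenat, 24.0 in CTnuc, 35.4 in KDnuc, 13.3 in CTut, 10.6 in KDut, 10.8 in CTtr and 15.1 in KDtr. At chr16:46380614-46402182 in the second block it was 10.2 in G4 DNA-IPnat, 11.3 in G4-ChIP, 14.4 in G4 DNA-IPdenat, 25.6 in CTnuc, 28.6 in KDnuc, 26.8 in CTut, 21.6 in KDut, 16.1 in CTtr and 13.5 in KDtr. All 3 regions repeated most strongly at 49 bases, and in the first chr16 block both Ion Torrent folds lay above those of all MinION lists.

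**Figure D3:**
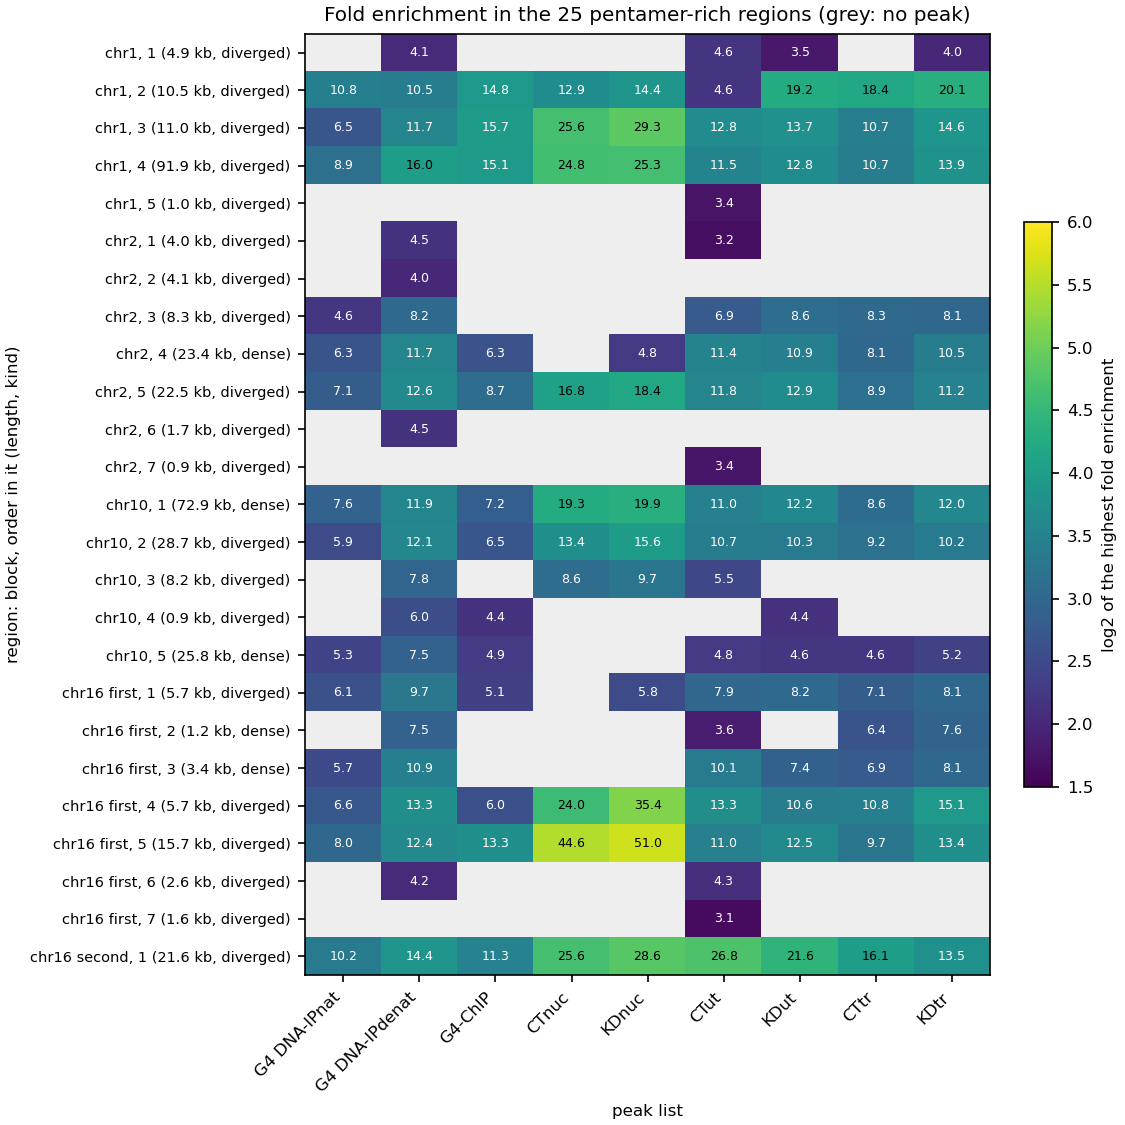
Highest fold enrichment (numbers, coloured by its log2) of each of the 25 pentamer-rich regions (rows, by block and order along it, with length and kind) in each of the 9 lists (columns), grey where a list has no peak. Rows without grey are the 9 regions of all lists, and the 44.6 of CTnuc and 51.0 of KDnuc in the first chr16 block are the highest values.

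The pentamer arrays were of 2 kinds. A limit of 30% of the bases, chosen after the values had been seen, divided the pentamer-rich tiles of the blocks into 564.6 kb of diverged arrays, in which the pentamer took 23.4% of the bases, and 126.3 kb of dense arrays, in which it took 47.0%. Most diverged regions repeated at 26 or 49 bases, and the dense ones at 5 or, in 1 case, 30. The median longest perfect run was 3 pentamers in peaks on diverged arrays and 9 in peaks on dense arrays. Dense arrays stood on chr10 (89.3 kb), chr2 (32 kb) and in the first chr16 block (5 kb), and diverged ones in all 5 blocks with pentamers.

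Guanine pairs set the kinds apart, and guanine triplets were scarce in both. Bases in a run of at least 4 GG with loops of 1 to 7 bases, or the same with CC, took 37.3% of the dense region chr10:41843312-41916246 and 34.1% of the dense region chr2:89817949-89841347. They took 0.0686% of the diverged region chr1:143184468-143276385 and 0.912% at chr2:90380043-90402510. An exception was chr16:34062046-34067704, which fell under the limit with 28.4% pentamer but repeated at 5 bases and had 44.9% of its bases in such runs. The median density of GGG and CCC was 2.53 per kb in peaks on diverged arrays and 8.68 per kb in peaks on dense ones, against 18.2 per kb in other block peaks and 15.5 per kb in all peaks outside the blocks. The canonical signature, in which 4 or more GGG follow each other on either strand with 1 to 7 bases between them, was found in 56 of the 728 block peaks (7.69%, exact 95% interval of 5.86% to 9.87%) and in 8.23% of all listed peaks. By class it was found in 1 of 329 pentamer-rich, 0 of 65 alpha-periodic and 55 of 334 other block peaks.

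The lists covered the 2 kinds unequally. Of the dense bases in the blocks, CTnuc peaks covered 9.99% and KDnuc peaks 16.9%, while G4 DNA-IPnat covered 35.6%, G4-ChIP 56.3%, G4 DNA-IPdenat 45.7%, CTut 57.3%, KDut 66.7%, CTtr 61.9% and KDtr 68.5%. Of the diverged bases, CTnuc covered 28.3% and KDnuc 31.1%, while G4 DNA-IPnat covered 16.4%, G4-ChIP 25.1%, G4 DNA-IPdenat 36.5%, CTut 31.0%, KDut 25.8%, CTtr 22.7% and KDtr 28.7%. Summed over the blocks, the Ion Torrent pair thus covered less of the dense than of the diverged bases, and each of the 7 MinION lists covered more. The sum of the diverged bases includes 248.8 kb of the first chr16 block, of which each list covered between 6.92% and 10.6%. Within the 3 blocks that hold both kinds, the Ion Torrent lists covered less of the dense bases in 6 of 6 cases and the MinION lists covered more in 18 of 21. The exceptions were G4 DNA-IPdenat on chr10 with 88.8% of the diverged and 36.1% of the dense bases, CTut on chr10 with 63.0% and 58.6%, and G4 DNA-IPnat on chr2 with 26.8% and 25.8%. The same order held for height in the Ion Torrent lists, where the median fold was 15.1 on diverged and 5.54 on dense arrays in CTnuc and 17.7 and 5.44 in KDnuc. In CTut it was 7.81 and 8.26, so that the dense arrays were the taller. In the remaining 6 lists the diverged median was the higher, by the most in G4-ChIP with 11.4 and 6.30. Within the dense region chr10:41843312-41916246 the skipped peak numbers came to 11 of 26 in CTnuc and 10 of 27 in KDnuc, so their part in this cover was not tested. In the blocks, 98.3% of the 150-base words of the dense arrays and 83.2% of those of the diverged arrays occurred once in the reference. A word that occurs more than once gives no uniquely aligned read of that length. By the study's supplementary tables, mean reads of CTnuc and KDnuc were close to this length. Those of the DNA-IP and G4-ChIP libraries were far longer.

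**Figure D4:**
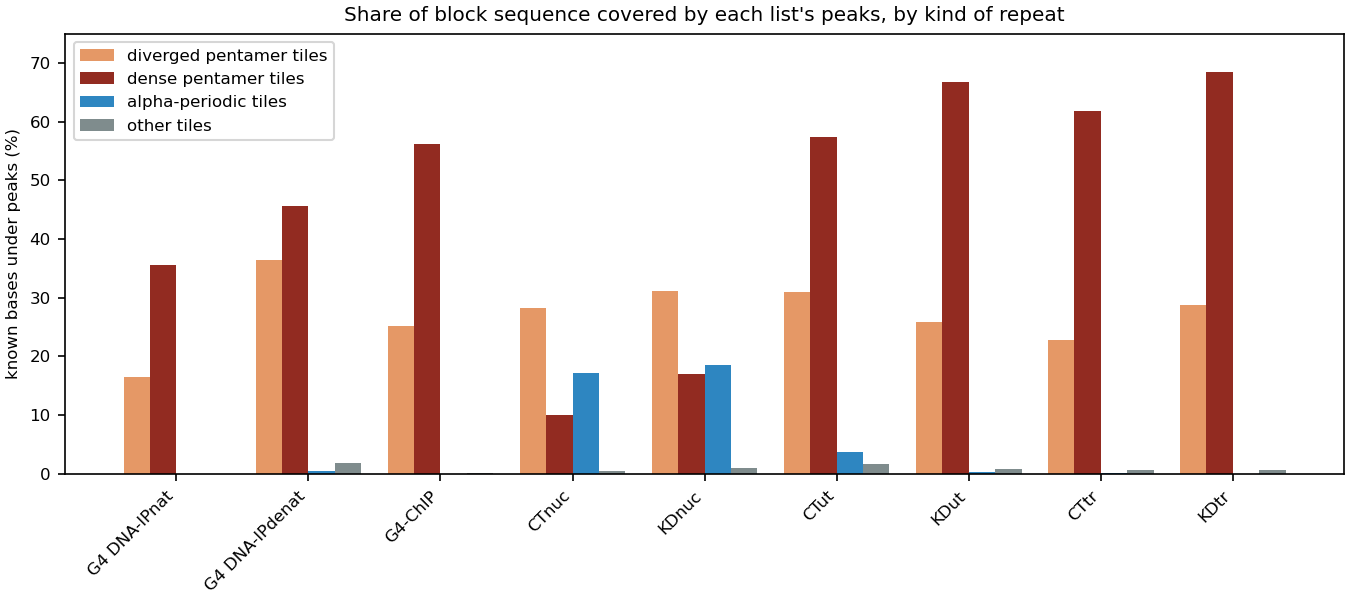
Percent of the known block bases that lie under each list's peaks (vertical axis), for diverged pentamer, dense pentamer, alpha-periodic and other tiles (bars, 1 group per list, 1 library each and so no error bars). Summed over the blocks, CTnuc and KDnuc are the lists whose dense bar (9.99% and 16.9%) is below the diverged one (28.3% and 31.1%), and they alone reach above 10% on alpha-periodic tiles (17.2% and 18.6%).

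Outside the blocks the diverged arrays were covered by less. Of 663.1 kb there, peaks covered 0.599% in CTnuc, 0.795% in KDnuc, 1.68% in G4-ChIP, 3.32% in G4 DNA-IPnat, 5.16% in CTtr, 5.90% in KDtr, 6.32% in KDut, 15.4% in CTut and 18.8% in G4 DNA-IPdenat. Each value was below that of the same list in the blocks. Dense arrays were covered by more inside the blocks than outside in 8 lists, for example 68.5% and 43.1% in KDtr, and by less in G4 DNA-IPdenat with 45.7% and 79.1%. Outside the blocks every list covered more of the dense than of the diverged bases. This included CTnuc with 4.22% and KDnuc with 6.43% of the dense bases, so their order in the blocks did not hold there. Of each list's pentamer-rich peaks, 68.3% in CTnuc and 67.4% in KDnuc lay in the blocks, against 26.4% to 34.6% in the 7 MinION lists.

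Much of the array sequence had no peak in any list. Of the 690.9 kb of pentamer-rich tiles, 290.8 kb were in tiles without any peak, and 215 kb of these stood in the first chr16 block. The peaks there stopped abruptly. The region with the highest CTnuc and KDnuc folds ended at chr16:34596479, and the tiles at chr16:34597001-34612000, with 22.7% pentamer against 23.0% in that region, had no peak in any of the 9 lists. Of their 150-base words 99.5% occurred once in the reference. Further stretches without a peak were chr16:34732001-34772000 with 22.8% pentamer, chr16:34695001-34729000 with 22.1% and, in the second chr16 block, chr16:46403001-46423000 with 23.0%. These stretches were chosen after the lists had been seen. In the first chr16 block the tiles with a peak had 24.9% pentamer and 91.3% words that occurred once, and those without had 23.1% and 81.2%. In the second block these values were 23.3% and 89.9% with a peak and 22.2% and 99.99% without. On chr1 and chr10 at most 9 tiles per block had no peak.

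The chr9 block was of other sequence. Its known sequence, 6220.6 kb, contained 319.9 kb of alpha-periodic tiles, and its 60 alpha-periodic peaks came mainly from the Ion Torrent lists, with 25 in CTnuc, 25 in KDnuc, 7 in CTut, 2 in G4 DNA-IPdenat and 1 in CTtr. The remaining 4 lists had 0. The tallest was in KDnuc, chr9:60590855-60591726, with a fold of 28.5, and the CTnuc peak at chr9:60590376-60591725 had a fold of 17.4. In these tiles 38.0% of the 150-base words occurred once in the reference. Over all blocks, alpha-periodic tiles were covered to 17.2% by CTnuc and 18.6% by KDnuc, to 3.63% by CTut, and to at most 0.455% by the remaining 6 lists. Outside the blocks every list had alpha-periodic peaks, and the MinION lists had many. CTut had 856 there, of 3496 peaks in its whole list, and CTnuc had 756, of 3796. KDnuc had 1277, G4 DNA-IPdenat 839, KDut 404, CTtr 402, KDtr 315, G4-ChIP 69 and G4 DNA-IPnat 48.

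The regions of chr9 that many lists shared lay in sequence that was neither pentamer-rich nor alpha-periodic. Peaks of 8 lists met in 3 of them, of which chr9:63816550-63825543 had the longest stretch under 7 lists at once, 1185 bases. It held 30.02 GGG and CCC per kb and the canonical signature. Its fold was 5.59 in G4 DNA-IPdenat, 5.23 in G4-ChIP, 6.59 in CTnuc, 6.75 in KDnuc, 7.11 in CTut, 5.03 in KDut, 5.73 in CTtr and 6.13 in KDtr, and G4 DNA-IPnat had no peak there. A GC-rich region at chr9:67722935-67724924, with 69.3 GGG and CCC per kb, had folds of 6.11 in G4-ChIP, 8.24 in CTnuc, 9.14 in KDnuc, 11.1 in CTut, 8.85 in KDut, 6.45 in CTtr and 8.43 in KDtr. Both DNA-IP lists lacked it. Between chr9:62798889 and chr9:62875259 stood 6 regions with 6 to 8 lists each, with folds of at most 6.53, and before the last of them a KDnuc peak of fold 4.28 that no other list had. Apart from the first named, these chr9 regions were picked with their values in view.

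Most block peaks lay between genes. By GENCODE version 44, the midpoint of 616 of the 728 (84.6%) fell in no gene, against 65.8% of all listed peaks, 81 fell in long non-coding RNA genes, 22 in pseudogenes and 9 in protein-coding genes. Among pentamer-rich peaks 313 of 329 fell in no gene and the other 16 in the long non-coding RNA ENSG00000291065 (chr10:42254072-42367993, minus strand), whose dense array chr10:42295508-42321313 had peaks in all MinION lists and in neither Ion Torrent list. There the fold was 5.32 in G4 DNA-IPnat, 4.89 in G4-ChIP, 7.55 in G4 DNA-IPdenat, 4.75 in CTut, 4.64 in KDut, 4.61 in CTtr and 5.24 in KDtr. The 6 neighbouring shared regions on chr9 met the long non-coding RNAs LINC01410 (chr9:62801461-62813486, 8 lists) and LERFS (chr9:62856999-62898095, 6 lists). No protein-coding gene held block peaks of 3 or more lists. ANKRD20A1 and ZNG1E had 2 lists each, the most of any protein-coding gene in the blocks, and were named after their values had been seen.

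KD was compared with CT within the 3 preparations. This addresses whether the knockdown of CGGBP1 went with a change of G4 capture in the blocks. In nuc the CT and KD folds are over the same input, whereas in ut and tr they are over separate inputs. Differences of fold in ut and tr thus also carry any difference between the inputs. With 3 pairs an exact two-sided sign-flip permutation test cannot go below p = 0.25. The share of the list's peaks that lay in the blocks was lower in KD by 0.77 percentage points in nuc (2.98% in CT and 2.21% in KD), by 0.97 in ut (2.92% and 1.95%) and by 0.15 in tr (2.32% and 2.18%). The mean difference was -0.63 points (SD 0.43, n = 3 pairs, lower in 3 of 3 pairs, exact sign-flip p = 0.25, the smallest possible). By bases instead of peaks the tr pair turned, with 3.05% of the peak bases in the blocks in CTtr and 4.25% in KDtr. With a minimum -log10 q of 4 the ut pair turned, to 0.16 points higher in KD. The mean difference was then -0.62 points (exact sign-flip p = 0.5). The share also moves with the peaks listed elsewhere, and the whole list held 3796 peaks in CTnuc and 7753 in KDnuc.

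The cover of the pentamer-rich block sequence did not move one way. It was 24.9% in CTnuc and 28.5% in KDnuc, 35.8% in CTut and 33.3% in KDut, and 29.8% in CTtr and 36.0% in KDtr. The mean difference was 2.39 points (SD 4.45, n = 3 pairs, higher in 2 of 3, exact sign-flip p = 0.5), which is less than the spread between the pairs. The median log2 fold of the block peaks was lower in KD by 0.68 in nuc and by 0.08 in tr and higher by 0.15 in ut, with a mean difference of -0.20 (SD 0.43, n = 3 pairs, exact sign-flip p = 0.75). This direction turned, to 0.037, without the nuc pair, and to 0.29 where a peak's -log10 q had to reach 4. Among pentamer-rich block peaks alone the median fold was higher in KD in 3 of 3 pairs, at 13.5 against 13.2 in nuc, 9.46 against 7.81 in ut and 9.86 against 8.05 in tr. Of the pentamer-rich peaks outside the blocks it was 5.88 against 6.13 in nuc, 6.08 against 5.48 in ut and 6.59 against 5.47 in tr, so that KD was higher there too in ut and tr. On dense arrays of the blocks alone the median was lower in KD in nuc (5.44 against 5.54) and in ut (6.02 against 8.26) and higher in tr (7.85 against 6.90). By block the pentamer-rich median was lower in KD in all 3 pairs on chr10, for example 4.53 against 6.60 in ut, in nuc on chr2 with 8.50 against 13.2 and in the first chr16 block with 22.4 against 25.6, and in ut and tr in the second chr16 block, with 10.7 against 18.1 in ut.

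By block, KD peaks covered more bases than CT peaks in nuc and tr on chr1, chr2, chr9, chr10 and the first chr16 block, and fewer in ut in these 5 blocks. On chr1 the covered length was 74.4 kb in CTnuc and 85.2 kb in KDnuc, 91.1 kb in CTut and 61.2 kb in KDut, and 58.2 kb in CTtr and 66.8 kb in KDtr. On chr9 it was 104.5 kb in CTnuc and 149.3 kb in KDnuc, 109.9 kb in CTut and 61.5 kb in KDut, and 48.9 kb in CTtr and 60.5 kb in KDtr. In these 5 blocks the ut pair went against the other two. The second chr16 block ran otherwise, with 14.4 kb in CTnuc and 13.7 kb in KDnuc, 6.69 kb in CTut and 8.33 kb in KDut, and 6.48 kb in CTtr and 12.6 kb in KDtr.

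Merged over the 6 AbC lists alone, 24 block regions had peaks in all 6, of which 14 were pentamer-rich. The highest fold was higher in KD in 3 of 3 pairs in 8 of the 24 and lower in 3 of 3 in 0. Over the whole series 23.0% of 553 such regions were higher in 3 of 3 and 4.88% lower, and the count of 8 among 24 was not tested against this background. By pair, KD was higher in 17 of 24 regions in nuc, 10 in ut and 23 in tr, and over the whole series in 309, 217 and 480 of 553. The higher KD folds in tr were thus seen over the shared regions of the whole series as well. Of the 8 regions, 7 were pentamer-rich. The largest difference was that of chr1:125160121-125170604 in ut, where the log2 ratio of KD to CT was 2.07, against 0.15 in nuc and 0.13 in tr. At the tallest region of the first chr16 block the log2 ratio was 0.19 in nuc, 0.18 in ut and 0.47 in tr.

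**Figure D5:**
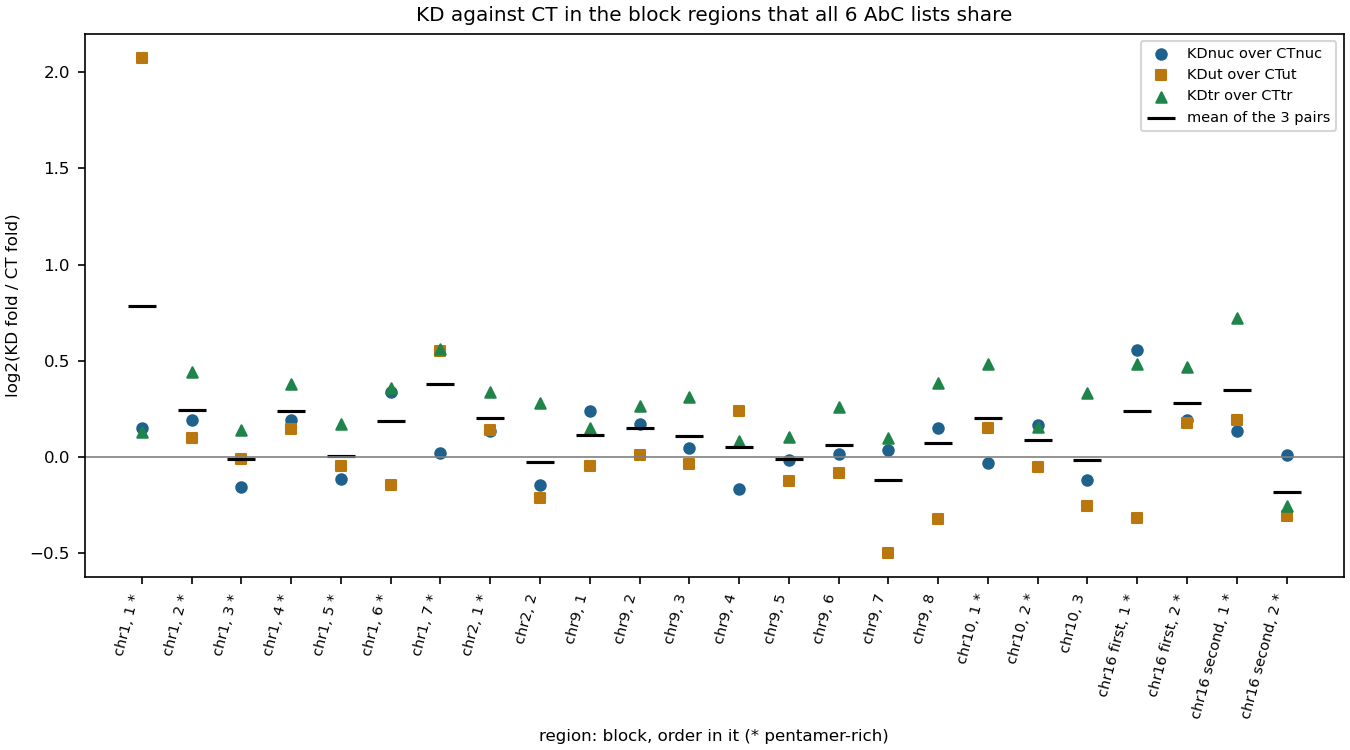
Log2 ratio of the highest fold in KD to that in CT (vertical axis) for the 24 block regions with peaks in all 6 AbC lists (horizontal axis, by block and order along it, pentamer-rich ones starred), with 1 symbol per preparation and a bar at the mean of the 3 pairs. The tr symbols lie above 0 in 23 of 24 regions, the nuc symbols in 17 and the ut symbols in 10, and the ut symbol of 2.07 on chr1 stands apart.

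Peaks also stood on the far side of the block limits. Just inside the start of the chr1 block stood a CTnuc peak of fold 4.50 at 4.25 kb, and just outside a G4 DNA-IPdenat peak of fold 3.92 at 1.82 kb. In G4 DNA-IPnat and each AbC list the nearest peak outside this start was pentamer-rich, at 19.1 to 20.3 kb. Its fold ran from 3.89 in CTtr to 6.64 in CTut, and it counts above as outside the blocks. At the end of the chr1 block the nearest were a G4 DNA-IPdenat peak of 5.70 at 247 kb inside and a KDnuc peak of 4.11 at 24.9 kb outside. For chr2 these were G4 DNA-IPdenat peaks of 4.95 inside and 4.96 outside at the start, and KDnuc peaks of 4.65 inside and 4.11 outside at the end. The start of the chr9 block divided alpha-periodic sequence, with a KDnuc peak of 5.08 inside and a G4 DNA-IPdenat peak of 6.50 outside, and at its end a CTut peak of 3.53 stood inside and a KDnuc peak of 4.36 outside.

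For chr10 the nearest were a G4 DNA-IPdenat peak of 4.47 inside and a CTnuc peak of 4.78 outside at the start, and G4 DNA-IPdenat peaks of 4.55 inside and 4.18 outside at the end. For the first chr16 block a G4 DNA-IPdenat peak of 13.1 stood inside and a CTut peak of 5.89 outside the start, and G4 DNA-IPdenat peaks of 4.03 inside and 4.22 outside the end. The second chr16 block starts in a gap with no peak within 1 Mb inside, and the nearest outside was a KDnuc peak of 18.1 at 122 kb. At its end G4 DNA-IPdenat peaks of 4.64 and 4.50 stood inside and outside.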

How the data were processed

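HEK293T libraries were sequenced and peaks called by the authors with MACS2 against inputs from uniquely aligned reads on hg38, with unplaced, mitochondrial and Y-chromosomal sequence left out. The methods name minimap2, and supplementary tables name bowtie2 for the Ion Torrent reads. A wider bandwidth without local background was used for G4 DNA-IPdenat and the AbC lists than for G4-ChIP and G4 DNA-IPnat, so peak numbers and lengths are not on one footing. The fold enrichment of each peak over its input, a ratio, is as deposited by the authors. The -log10 p and -log10 q values are likewise those deposited by the authors, as is the score, which repeats the q-value as a whole number and was not used here. Inputs and signal tracks were not used here, and depth is unknown from the lists.

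Members and limits were chosen with earlier results of these data known. Sequence classes, signatures and repeat distances (5 to 400 bases) were computed on the hg38 reference, in peaks and in 1 kb tiles. Block peaks sharing at least 1 bp were merged. A region's fold in a list is the highest of its peaks. Regions named are, by rule, the most shared region of each block (ties by the longest stretch under that many lists), the tallest block peak of each list, the nearest peak on either side of each limit within 1 Mb, and protein-coding genes with block peaks of at least 3 lists. Others were picked with their values in view. KD was compared with CT by exact sign-flip permutation tests over the 3 pairs, which come from the preparation that the labels name, and by an exact permutation of the 6 labels. Intervals are exact Clopper-Pearson intervals at 95%. The other alternatives were a minimum -log10 q of 4, pentamer limits of 5% and 20%, other overlaps and merging distances, limits moved by 0.5 Mb, a peak's central 1000 bp, shares of bases, folds relative to the list's other peaks, each pair left out, and, added after the data had been seen, other dense limits, other ways to take a region's fold, and leaving out the Ion Torrent lists. Functions were tested on simulated data, with 18 of 18 checks recovered. Used were Python 3.11.15 with pysam 0.24.0, numba 0.67.0, scipy 1.17.1, pandas 2.3.3, matplotlib 3.10.9 and numpy 2.4.6.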

Additional observations from a re-analysis of the deposited data

Results flagged for a closer look

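The 3 preparations did not move alike between CT and KD in 2 measures, of which each preparation gives 1 pair, so that the difference between preparations was not tested. The percent of pentamer-rich block sequence under peaks was higher in KD by 3.54 points in nuc and by 6.15 points in tr, and differed by -2.53 points in ut. The median log2 fold of the block peaks differed by -0.68 in nuc and by -0.079 in tr, and was higher in KD by 0.15 in ut. The covered length went down in ut from 440.6 kb in CTut to 316.3 kb in KDut while the median fold went from 3.90 to 4.34.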

How the results depend on the processing

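Of 40 values under alternatives, 28 were counted as kept, 10 moved and 2 turned. For the differences between KD and CT, kept means the same sign, whatever the size. A share difference of -1.28 points with limits moved outward and a cover difference of 0.51 points without the tr pair were thus counted as kept. For the other results, kept means a size within a set range. Without the pairing as a replicate block, the differences are the same by construction (-0.63 points for the share of peaks in the blocks, 2.39 points for pentamer-rich cover, -0.20 for the median log2 fold), with exact label permutation p = 0.1, 0.6 and 0.7, where 0.1 is the smallest that 3 against 3 allows. Leaving out each pair in turn gave -0.87 to -0.46 points for the share, 0.51 to 4.85 points for the cover and -0.38 to 0.037 for the median log2 fold, which turned when the nuc pair was left out. It also turned, to 0.29, with a minimum -log10 q of 4. By bases instead of peaks the share changed by -0.42 points, with tr higher in KD by 1.20. With a minimum -log10 q of 4 the share changed by -0.62 points, with ut higher in KD by 0.16. The minimum of 4 left 482 block peaks, of which 61.6% were pentamer-rich, and 13 regions of at least 7 lists. Limits moved outward by 0.5 Mb gave 1298 block peaks. Overlap with another list over at least 50% of the length held for 76.0% of block peaks, and the canonical signature in the central 1000 bp for 2.88%. For alternatives added after the data had been seen, the cover of dense minus that of diverged arrays averaged -16.2 points in the Ion Torrent lists, -11.6 with a dense limit of 25% and -7.94 with 40%, and 36.6 points in the MinION AbC lists, 19.1 with 25% and 54.1 with 40%. The block regions higher in KD in 3 of 3 pairs were 6 to 11 under other ways to merge, scale and take the fold. The lists give no depth, so a region without a peak is not shown to lack captured DNA.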
